A study of Rattus norvegicus with 10 samples.

Results

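Interferon response genes are the genes that cells switch on when interferons bind their receptors, and 39 of them were followed here in rat muscle. They were chosen by name as known members of the interferon response, by a choice made with earlier results of these data known, and each of the 39 names stood on 1 of the 32883 features of the authors' deposited gene table. All 39 had enough counts to be tested. Their levels are given in each library as CPM, that is, counts scaled to the library's total, together with their spread inside the control group.

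The study sequenced mRNA of muscle from rats of the Sprague Dawley strain, as 10 libraries. The 3 libraries labelled TZG (numbers 26, 27 and 43) are called a drug in their titles, in a study of a liquid herbal extract named Tianhe Zhuifeng. The 3 labelled MPS (10, 11 and 14) stand for myofascial pain syndrome, in which tender, tight knots form in muscle, and the 4 labelled NC (4, 5, 6 and 7) are taken here as the controls. The labels do not say whether the TZG animals carried the pain model, which muscle was taken, how the model was made, the dose, time, age or sex, or whether each library is a separate animal, so p-values here reflect the spread among libraries and nothing more. In every list of values below, the order within a group is 26, 27 and 43 for TZG, 10, 11 and 14 for MPS, and 4, 5, 6 and 7 for NC.

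Type I interferons (alpha and beta), made by many cells that sense foreign nucleic acid, act through kinases and a complex of transcription factors that includes STAT2 and IRF9 and binds a DNA motif called the interferon-stimulated response element. Interferon gamma, made by T cells and natural killer cells, acts mainly through a second motif, the gamma-activated site. The genes switched on include sensors of viral RNA, enzymes that block viral replication, GTPases that attack vacuoles of intracellular microbes, and the modifier ISG15 with its enzymes, and many are also made at a low level without infection.

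The promoters of several of these genes carry the motif through which the pathway acts. From the promoters that held it, 7 windows are shown, for genes whose values are given below. Sequences come from RefSeq (build GRCr8), which held a promoter of 250 bases before to 50 after the gene's start for 29 of the 39 genes; Ifit1, Ifit2, Mx2, Isg15, Oas2, Usp18, Ddx58, Dhx58, Rtp4 and Zbp1 were not in it. The motifs searched were the response element GAAANNGAAA on both strands and the gamma-activated site TTCNNNGAA, which reads the same on both strands. Capitals mark both motifs in the windows, written 5′ to 3′ on the gene's own strand.
Ifi44l: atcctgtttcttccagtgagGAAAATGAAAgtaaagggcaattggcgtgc
Irgm: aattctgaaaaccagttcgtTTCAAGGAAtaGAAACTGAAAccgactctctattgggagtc
Igtp: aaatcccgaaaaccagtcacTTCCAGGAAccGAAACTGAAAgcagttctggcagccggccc
Parp14: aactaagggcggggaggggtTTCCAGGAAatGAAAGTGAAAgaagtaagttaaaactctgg
Ifih1: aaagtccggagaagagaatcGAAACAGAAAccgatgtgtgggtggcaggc
Ifit3: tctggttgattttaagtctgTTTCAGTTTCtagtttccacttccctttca
Rsad2: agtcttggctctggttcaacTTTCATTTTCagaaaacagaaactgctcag
The windows lie at chr2:243328644-243328693 (forward strand), chr10:33742583-33742643 (reverse strand), chr10:42874913-42874973 (forward strand), chr11:78408027-78408087 (forward strand), chr3:67683998-67684047 (reverse strand), chr1:241527262-241527311 (forward strand) and chr6:48788238-48788287 (reverse strand). In Irgm, Igtp and Parp14 a gamma-activated site stands directly before the response element, whereas Ifit3 and Rsad2 carry the response element on the opposite strand. At least 1 response element was found in 18 of the 29 promoters (62.1%), against 3.92% of all 33469 promoters in the table. A gamma-activated site was found in 9 (31.0%), against 8.87%, and both motifs in 6 (20.7%), against 0.514%. These matches describe letters in a window and are not evidence of binding. The 11 promoters without an exact match to the response element in the bases searched were those of Cmpk2, Herc6, Ifi35, Ifi47, Irf1, Irf9, Mx1, Oasl, Parp9, Stat2 and Trim25.

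Total counts ran from 12616160 to 18179144 per library. MPS 14 stood apart from the rest: its skeletal muscle markers summed to 5427 CPM, against 93255 to 133219 CPM in the other 9 libraries, and its B cell markers to 1632 CPM, against at most 2.45 CPM. Mitochondrial transcripts took 9.71% of its counts and 18.7% to 38.6% elsewhere. Every comparison with MPS is therefore given with all libraries and again without MPS 14, and fold changes are on the log2 scale with standard errors (SE) from edgeR's quasi-likelihood test, adjusted by Benjamini-Hochberg over all genes tested, with a threshold of 0.05. The library was left out after its values were known.

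Interferon response genes were expressed in every NC library, but at levels that differed several-fold among the controls themselves. Summed over the 39 genes, the level was 581, 605 and 437 CPM in TZG, 680.3, 467 and 3367 CPM in MPS, and 879, 576, 1873 and 1287 CPM in NC. Per transcript length, the highest NC means were those of Ifi27, a mitochondrial interferon-induced protein, at 213 FPKM (fragments scaled to transcript length and library total), and of Bst2 (tetherin, which holds budding virus at the cell surface), at 76.8 FPKM. The lowest were those of Zbp1 at 0.197 FPKM and Oas2 at 0.353 FPKM.

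NC 6 was the highest of the 4 NC libraries for 35 of the 39 genes and NC 5 the lowest for 34. Over all 13719 genes tested without MPS 14 the same places were held by 45.4% and 37.7% of genes, and both at once by 31 of the 39 genes, against 19.2% of all. After scaling libraries by TMM factors, NC 6 was highest for 30 and NC 5 lowest for 32, against 22.7% and 24.2% of all genes. The SD of log2(CPM + 0.5) across NC had a median of 0.73 over the 39 genes and of 0.30 over all genes tested, 5.56% of which reached 0.73. In TZG the median SD was 0.37 over the 39 genes, against 0.43 over all genes, and on TMM-scaled CPM the order turned, at 0.44 against 0.38.

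**Figure D1:**
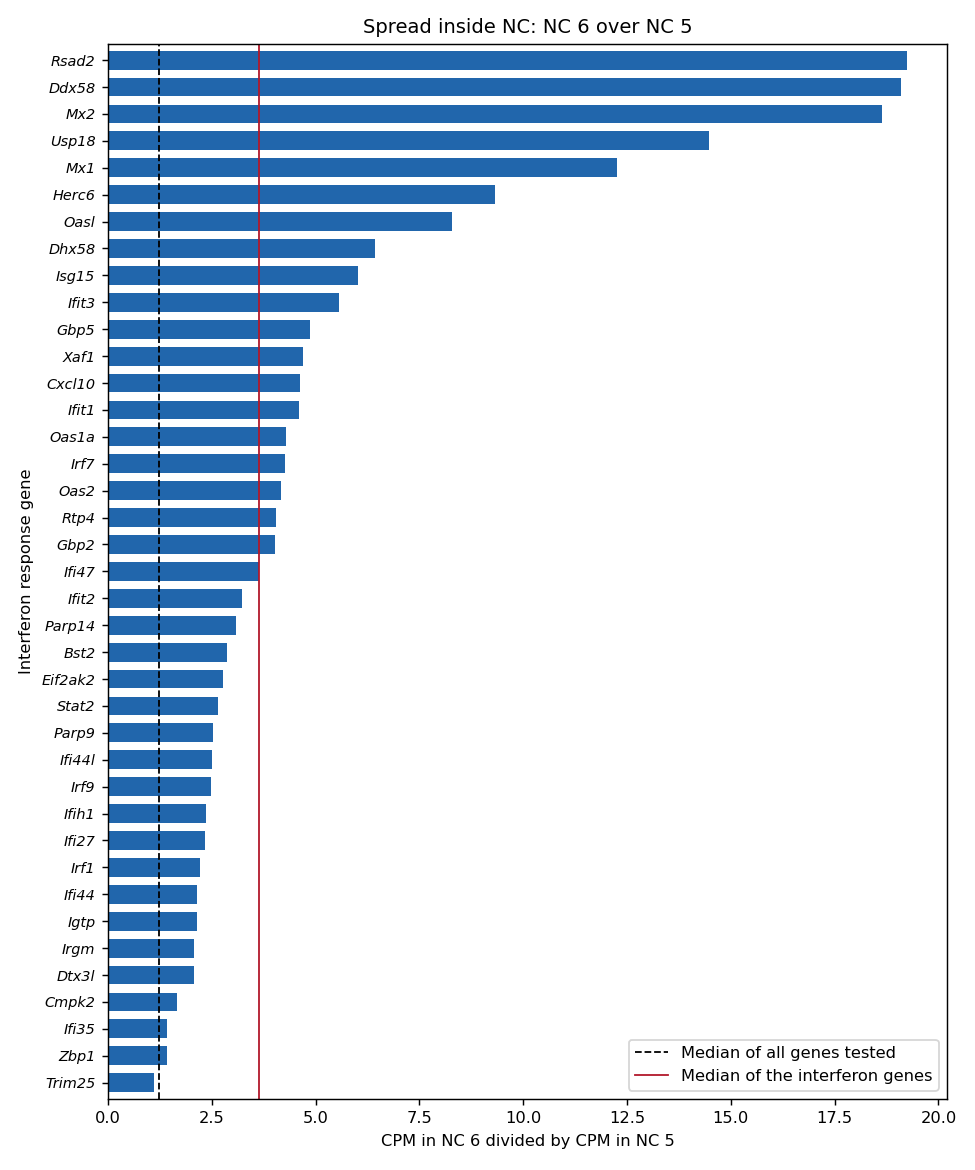
CPM in NC 6 divided by CPM in NC 5 for each of the 39 genes (horizontal bars, linear axis), with the median of the 39 genes (3.63, red line) and of all genes tested (1.23, dashed line). The ratio runs from 1.10 for Trim25 to 19.2 for Rsad2.

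The genes that differed most among controls were effectors, a sensor and a feedback gene, known for their strong response to type I interferon. Rsad2 (viperin, which makes a chain-terminating nucleotide) had 3.88, 4.20 and 5.82 CPM in TZG, 5.52, 1.21 and 15.9 CPM in MPS, and 8.39, 1.66, 32.0 and 13.8 CPM in NC. NC 6 exceeded NC 5 by 19.2-fold for this gene, and the TZG libraries lay between NC 5 and NC 4. Ddx58 (RIG-I, a sensor of viral RNA) differed by 19.1-fold on 122 and 6 counts, Mx2 by 18.6-fold, Usp18 by 14.5-fold and Mx1 by 12.3-fold. At the other end were Trim25, the ubiquitin ligase of RIG-I, at 1.10-fold, Ifi35 at 1.41-fold and Zbp1 at 1.41-fold. Of the 39 genes, 22 had a ratio of 3 or more, against 3.28% of all genes tested, although NC 6 and NC 5 were set side by side because they were the extremes. Macrophage markers were also highest in NC 6 and lowest in NC 5 among the controls, summing to 490, 313, 698 and 324 CPM in NC 4, 5, 6 and 7; on TMM-scaled CPM NC 7 was the lowest, at 303 against 319 for NC 5. Skeletal muscle markers were highest in NC 6 too, and the share of mitochondrial counts was lowest there at 18.7%. Their part in this spread was not tested.

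**Figure D2:**
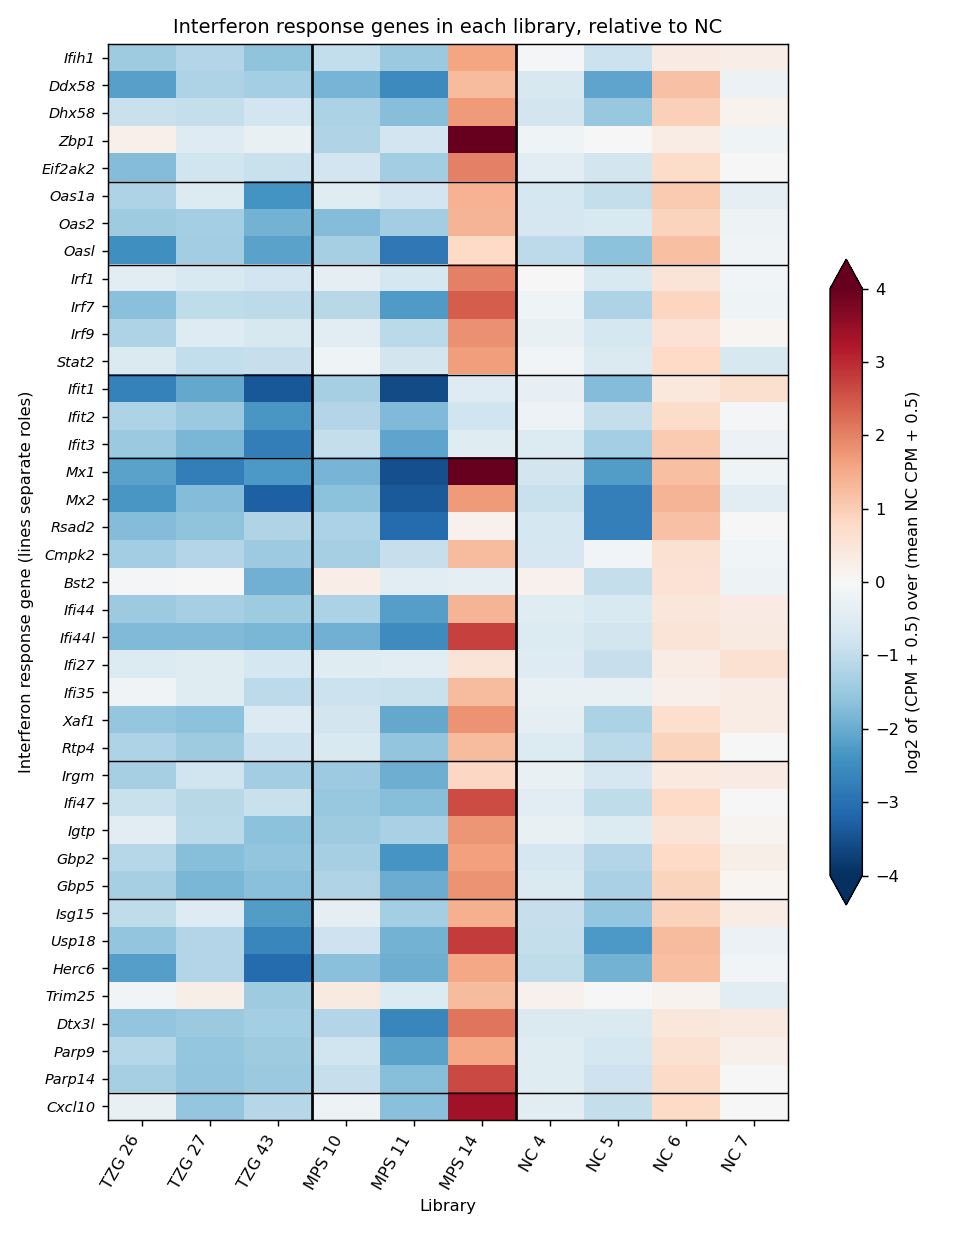
Level of each gene (rows, grouped by role) in each library (columns, TZG, MPS and NC from left to right), as log2 of (CPM + 0.5) over (mean NC CPM + 0.5); red is above and blue below the NC mean. MPS 14 is red in most rows, and the TZG libraries, MPS 10 and MPS 11 are mostly blue.

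MPS was set against NC to ask how muscle in the pain syndrome differs from control muscle. In MPS 10 and 11, 37 of the 39 genes were lower than in NC, with a median log2 fold change of -1.15, while all genes tested had a median of -0.02. Ifi44l, an interferon-induced protein of little known function, had a log2 fold change of -2.30 ± 0.45 (edgeR adjusted p = 0.0327), and Irgm, a GTPase that acts on membranes around intracellular microbes, had one of -1.45 ± 0.30 (edgeR adjusted p = 0.0361). These 2 of the 39 genes fell past the threshold, where 0.321% of all genes tested passed in this direction. Bst2 and Trim25 were higher, at log2 fold changes of 0.24 and 0.23, and 51.8% of all genes tested were lower. Scaled by library totals alone all 39 were lower. That scale leaves out the TMM factors, 0.991 and 0.914 in MPS 10 and 11 and 1.06 to 1.29 in NC, and so moves all genes. The share of all genes lower on it is not given here. At an unadjusted p below 0.05, 23 of the 39 were lower, against 8.65% of all genes, and DESeq2 called 11, against 2.78%. For 16 genes both MPS libraries had fewer CPM than every NC library, against 31.6% of all genes, and for 13 genes on TMM-scaled CPM, against 18.6%. Neither call stood when 1 library, any of MPS 10, MPS 11, NC 4, NC 5, NC 6 or NC 7, was left out, with adjusted p-values of 0.0522 to 0.296 for Ifi44l and 0.0560 to 0.318 for Irgm and log2 fold changes between -2.68 and -1.97 for Ifi44l and between -1.65 and -1.24 for Irgm.

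With MPS 14 included, the genes divided about evenly, 19 lower and 20 higher in MPS, at a median of 0.01 against 0.13 for all genes. None passed in edgeR (0.0% of all 13535 genes passed as lower), none in DESeq2 and none in limma-voom. At an unadjusted p below 0.05, 3 were lower, against 3.34% of all genes, and 1 was higher, against 7.62%. The lower ones were Ifit2 (-1.24 ± 0.35; edgeR adjusted p = 0.383), Ifit1 (-1.59 ± 0.63; 0.418) and Ifit3 (-1.14 ± 0.51; 0.455). The higher one was Zbp1 (3.29 ± 1.43; edgeR adjusted p = 0.450), which stood at -2.50 without MPS 14. MPS 14 had the highest CPM of all 10 libraries for 32 of the 39 genes, as for 53.8% of all genes. The exceptions in CPM were Oasl, Ifit1, Ifit2, Ifit3, Rsad2, Bst2 and Ifi27. On TMM-scaled CPM, MPS 14 was the highest for 24 of the 39 genes, against 33.8% of all genes.

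TZG was set against NC to ask how muscle labelled with the extract differs from control muscle. Here 37 of the 39 genes were lower in TZG, with a median log2 fold change of -0.94 against 0.02 for all genes, Trim25 and Zbp1 being the 2 that were higher, by less than their SE. None passed in edgeR (0.0% of all genes as lower), and none in DESeq2 or limma-voom. At an unadjusted p below 0.05, 5 were lower, against 2.23% of all genes: Ifit1, Ifit2, Ifit3, Cmpk2 and Oas2. Fitted without MPS 14, the median was -0.93. In that fit 18 genes were lower at an unadjusted p below 0.05, against 7.22% of all genes, and the smallest adjusted p was 0.0742, for Ifi44l; 0.00729% of all genes passed as lower. DESeq2 called 9 of the 39 in that fit, against 1.67% of all genes. Every TZG library was below every NC library for 14 genes in CPM, against 24.1% of all genes, and for 11 genes in TMM-scaled CPM, against 7.81%. Fold changes of single genes below, in TZG against NC, come from the fit without MPS 14 unless all libraries are named. With all libraries, the smallest edgeR adjusted p among the 39 genes was 0.836 in this comparison.

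**Figure D3:**
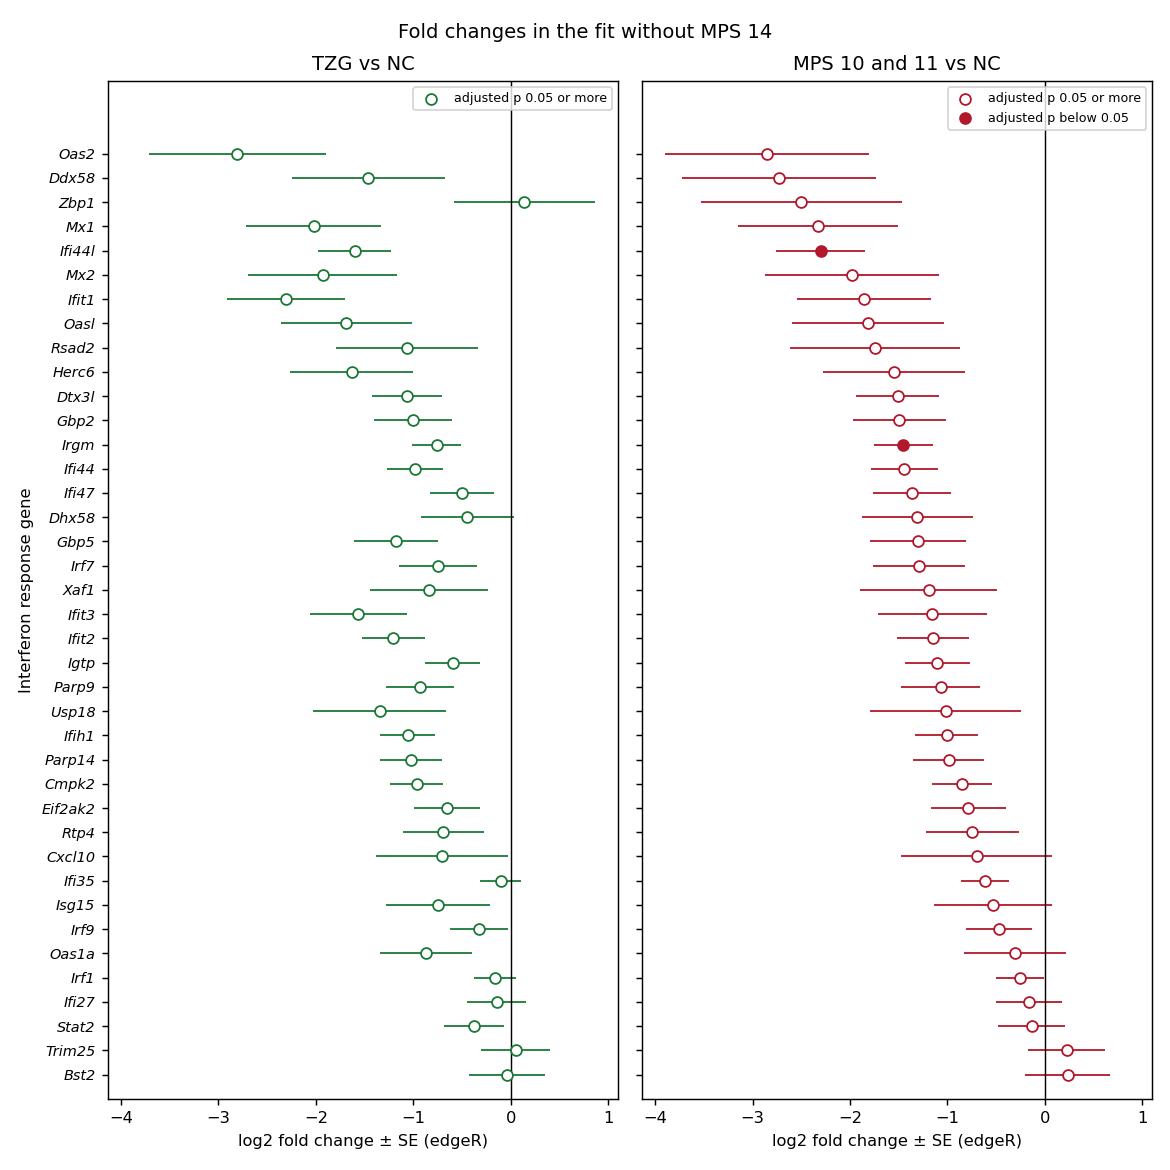
Log2 fold change with its SE for each gene in TZG against NC (left) and MPS 10 and 11 against NC (right), in the edgeR fit without MPS 14; filled points passed an adjusted p of 0.05. Both panels share the NC libraries. Most points lie left of 0, and the filled ones are Ifi44l and Irgm in the right panel.

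TZG was set against MPS to ask how the extract differs from the pain syndrome, and the result for these genes depended on MPS 14. Against all 3 MPS libraries, 35 of the 39 genes were lower in TZG, at a median log2 fold change of -0.86 against -0.05 for all genes. None passed in edgeR (0.0% of all genes as lower), DESeq2 or limma-voom, and 2, Mx1 and Parp14, were lower at an unadjusted p below 0.05, against 4.14% of all genes. Parp14 stood at -1.79 ± 0.76, Ifi44l at -2.30 ± 1.05, Usp18 at -2.29 ± 1.06 and Cxcl10 at -2.31 ± 1.10, all at an edgeR adjusted p of 0.771; without MPS 14 these were -0.04, 0.70, -0.33 and -0.00. Against MPS 10 and 11 alone, 14 were lower and 25 higher, at a median of 0.12 against 0.02 for all genes. None passed either (0.0% of all genes as lower), and 2, Zbp1 and Irgm, were higher at an unadjusted p below 0.05, against 2.76% of all genes. Scaled by library totals alone, the median against MPS 10 and 11 was -0.05. That scale leaves out the TMM factors, 0.884, 0.974 and 0.734 in TZG and 0.991 and 0.914 in MPS 10 and 11. It therefore moves all genes, and their median on it is not given here.

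The effector Ifi44l had 1.84, 1.80 and 1.70 CPM in TZG, 1.58, 0.880 and 51.8 CPM in MPS, and 4.86, 4.28, 10.7 and 9.74 CPM in NC. MPS 10 and 11 were the lowest, all 3 TZG libraries lay just above them, and every NC library was above both, so that only MPS 14 broke the pattern. The log2 fold change in the fit without MPS 14 was -1.60 ± 0.37 for TZG against NC (edgeR adjusted p = 0.0742), and 0.70 ± 0.46 for TZG against MPS 10 and 11 (edgeR adjusted p = 0.970). Its neighbour Ifi44, 49290 bases away in the deposited annotation, had 11.6, 12.6 and 11.8 CPM in TZG, 13.0, 6.60 and 83.5 CPM in MPS, and 22.9, 20.8, 44.8 and 40.7 CPM in NC. Here too neither TZG nor MPS 10 and 11 overlapped NC. Ifi44 stood at -1.44 ± 0.34 for MPS 10 and 11 against NC (edgeR adjusted p = 0.0543), and at -0.98 ± 0.29 for TZG against NC (edgeR adjusted p = 0.122).

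Mx1 and Mx2 are dynamin-like GTPases that block the replication of RNA viruses in mice and humans. Mx1 had 3.94, 2.40 and 3.48 CPM in TZG, 4.91, 1.21 and 345 CPM in MPS, and 11.2, 3.65, 44.7 and 17.0 CPM in NC. MPS 14 held 4713 counts of it, while NC 5 lay within the range of the TZG libraries, so the groups overlapped. Its log2 fold changes were -2.33 ± 0.82 for MPS 10 and 11 against NC and -2.02 ± 0.69 for TZG against NC (edgeR adjusted p = 0.150 and 0.161). Against all 3 MPS libraries, TZG stood at -4.05 ± 1.55, at an edgeR adjusted p of 0.771, and without MPS 14 at 0.30. Mx2 had 7.82, 12.2 and 3.83 CPM in TZG, 13.1, 3.58 and 135 CPM in MPS, and 22.0, 5.79, 108 and 30.1 CPM in NC, with NC 5 again within the range of the TZG libraries. The 2 genes lie on 1 chromosome, and how reads shared between such related genes were counted is not given in the sources used here; this holds for the IFIT, OAS and GBP genes too.

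Cmpk2, a mitochondrial nucleotide kinase that lies 14085 bases from Rsad2, had 6.16, 7.36 and 5.89 CPM in TZG, 6.49, 8.91 and 41.7 CPM in MPS, and 10.5, 15.8, 26.3 and 15.98 CPM in NC. Its log2 fold change was -0.97 ± 0.27 for TZG against NC without MPS 14 (edgeR adjusted p = 0.112). In CPM the TZG libraries, MPS 10 and MPS 11 all lay below every NC library. On TMM-scaled CPM this held for TZG, while MPS 10 and 11 overlapped NC. Unlike Rsad2, it was lowest in NC 4 among the controls, and NC 5 was near NC 7.

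The levels of the most abundant effectors, Ifi27 and Bst2, overlapped between the groups. Ifi27 had 150.0, 158 and 134 CPM in TZG, 159, 164 and 314 CPM in MPS, and 155, 117, 274 and 339 CPM in NC, with TZG, MPS 10 and MPS 11 all inside the NC range, at log2 fold changes of -0.16 for MPS 10 and 11 against NC and -0.14 for TZG against NC. Bst2 had 96.8, 102 and 26.3 CPM in TZG, 120.2, 73.4 and 77.5 CPM in MPS, and 113, 51.9, 149 and 86.8 CPM in NC. TZG 43 was the lowest of all libraries for Bst2, and its endothelial markers were lowest too, summing to 178 CPM there, against 488 CPM or more in the other libraries; their part in the Bst2 level was not tested. Ifi35 had 24.8, 19.4 and 13.1 CPM in TZG, 14.9, 14.4 and 66.0 CPM in MPS, and 22.2, 22.0, 31.1 and 33.5 CPM in NC, with TZG 26 inside the NC range and MPS 10 and 11 below it (-0.61 ± 0.25; edgeR adjusted p = 0.193). The remaining effectors, Xaf1, which promotes cell death, and Rtp4, a chaperone of receptors, stood at -1.19 and -0.74 for MPS 10 and 11 against NC and at -0.84 and -0.69 for TZG against NC.

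The IFIT proteins, which bind viral RNA and stall its translation, were the group with the smallest p-values in TZG against NC with all libraries. Ifit1 had 5.78, 9.31 and 3.41 CPM in TZG, 15.6, 2.92 and 28.1 CPM in MPS, and 32.1, 11.8, 54.2 and 63.2 CPM in NC. Every TZG library was below NC 5, the lowest control, and MPS 10 overlapped NC. The log2 fold change was -2.32 ± 0.65 for TZG against NC with all libraries (edgeR adjusted p = 0.836) and -2.31 ± 0.61 without MPS 14 (edgeR adjusted p = 0.0966). Ifit2 had 30.8, 25.5 and 14.1 CPM in TZG, 32.4, 21.1 and 42.0 CPM in MPS, and 63.0, 37.8, 122 and 68.8 CPM in NC. TZG, MPS 10 and MPS 11 were all below NC 5, and MPS 14 lay within the NC range. Ifit2 stood at -1.20 ± 0.32 for TZG and at -1.15 ± 0.37 for MPS 10 and 11, each against NC (edgeR adjusted p = 0.0988 and 0.125). Ifit3, whose promoter window is shown above, had 9.47, 7.43 and 3.62 CPM in TZG, 13.9, 6.05 and 19.6 CPM in MPS, and 18.6, 10.5, 58.2 and 23.2 CPM in NC. TZG 26 lay close below NC 5 in CPM, and on TMM-scaled CPM the groups overlapped; the fold change of TZG against NC was -1.56 ± 0.50 (edgeR adjusted p = 0.142). The 3 genes lie side by side, with at most 43376 bases between any pair.

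Among the sensors, Ifih1 (MDA5, which binds long double-stranded RNA) had 4.32, 5.18 and 3.69 CPM in TZG, 6.001, 4.07 and 37.5 CPM in MPS, and 12.0, 6.58, 15.6 and 15.0 CPM in NC. All TZG libraries and both MPS 10 and MPS 11 were below every NC library. In the fit without MPS 14, its log2 fold changes were -1.06 ± 0.28 for TZG and -1.01 ± 0.32 for MPS 10 and 11, each against NC (edgeR adjusted p = 0.0988 and 0.121). With all libraries, TZG against NC stood at -1.06 ± 0.51 (edgeR adjusted p = 0.865). Eif2ak2 (PKR, a kinase that stops translation on binding double-stranded RNA), the most abundant sensor, had 7.12, 13.9 and 12.9 CPM in TZG, 14.2, 9.02 and 102 CPM in MPS, and 18.4, 14.7, 41.0 and 24.3 CPM in NC. In CPM, TZG was below every NC library, and MPS 10 came within 1 CPM of NC 5. On TMM-scaled CPM, TZG overlapped NC, as did MPS 10 and 11. Dhx58 (LGP2, a helper of the other RNA sensors) stood at -1.31 for MPS 10 and 11 and at -0.45 for TZG, each against NC.

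Zbp1, a sensor of left-handed nucleic acid that triggers necroptosis, was near the limit of detection outside MPS 14. It had 13, 4 and 6 counts in TZG, 0 and 3 counts in MPS 10 and 11, and 7, 8, 12 and 7 counts in NC, against 409 counts in MPS 14. The fitted log2 fold change of 2.64 ± 1.07 for TZG against MPS 10 and 11 (edgeR adjusted p = 0.970) rests on those few counts and is no bound. Counting error alone is large at such depth.

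The oligoadenylate synthetases make a messenger that activates an RNA-cutting enzyme, except Oasl, which lacks that activity in its human counterpart and assists RIG-I. Oas1a, the most abundant, had 5.72, 9.38 and 2.27 CPM in TZG, 10.001, 8.14 and 37.9 CPM in MPS, and 8.54, 6.98, 29.9 and 10.9 CPM in NC. TZG 43 was the lowest library, while TZG 27 and both low MPS libraries lay within the NC range. Oas2 had 3, 3 and 0 counts in TZG, 1, 4 and 58 counts in MPS, and 9, 9, 40 and 15 counts in NC. Its fitted log2 fold change for TZG against NC without MPS 14 was -2.81 ± 0.91 (edgeR adjusted p = 0.148), again on few counts. Oasl stood at -1.69 for TZG and -1.82 for MPS 10 and 11, each against NC, and NC 5 overlapped both.

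The 4 transcription factors of the pathway stood at medians of -0.35 for TZG without MPS 14 and -0.36 for MPS 10 and 11, each against NC, and none passed. Irf7, which amplifies the type I response, had 19.6, 30.8 and 30.7 CPM in TZG, 29.2, 12.9 and 338 CPM in MPS, and 56.3, 26.8, 114 and 56.0 CPM in NC. TZG 26 and MPS 11 were below every NC library, and the other TZG libraries and MPS 10 were just above NC 5. The log2 fold changes of Irf7 were -0.74 ± 0.40 for TZG against NC and -1.29 ± 0.47 for MPS 10 and 11 against NC (edgeR adjusted p = 0.341 and 0.162). Stat2, Irf9 and Irf1, the last a factor of the gamma response, lay between -0.37 and -0.16 for TZG and between -0.47 and -0.13 for MPS 10 and 11, each against NC.

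The 5 GTPases that act on vacuoles of microbes and are known for their response to interferon gamma were all lower in MPS 10 and 11 than in NC, at a median log2 fold change of -1.36, and of the 5 only Irgm passed. Their direction was that of 37 of the 39 genes. Irgm had 10.5, 15.7 and 10.1 CPM in TZG, 9.76, 6.71 and 48.8 CPM in MPS, and 22.1, 17.2, 35.8 and 34.6 CPM in NC. TZG lay between MPS 10 and 11 on the low side and NC on the high side, with no overlap among these 3 sets. TZG stood at -0.76 ± 0.25 against NC (edgeR adjusted p = 0.154) and at 0.69 ± 0.31 against MPS 10 and 11 (edgeR adjusted p = 0.970). Ifi47, 56064 bases from Irgm, had 12.3, 10.4 and 12.3 CPM in TZG, 7.76, 6.66 and 142 CPM in MPS, and 17.2, 11.2, 40.6 and 23.3 CPM in NC. MPS 10 and 11 were below all other libraries, and TZG overlapped NC through NC 5; the fold change of MPS 10 and 11 against NC was -1.36 ± 0.40 (edgeR adjusted p = 0.0939).

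Igtp, a further GTPase of this family, had 15.2, 9.68 and 6.39 CPM in TZG, 7.64, 8.31 and 73.2 CPM in MPS, and 17.1, 14.3, 30.4 and 22.7 CPM in NC. TZG 26 was above NC 5 and TZG 43 below both low MPS libraries, so that TZG spanned the gap. Igtp stood at -1.10 ± 0.33 for MPS 10 and 11 against NC (edgeR adjusted p = 0.104) and at -0.59 for TZG against NC. The guanylate-binding protein Gbp2, the most abundant GTPase in CPM, had 22.3, 14.9 and 16.4 CPM in TZG, 19.3, 9.35 and 155 CPM in MPS, and 31.0, 21.7, 87.2 and 58.9 CPM in NC. MPS 10 and 11 were below every NC library, and TZG 26 was above NC 5. Gbp5, which overlapped NC through MPS 10, stood at -1.30 for MPS 10 and 11 and at -1.18 for TZG, each against NC.

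Of the genes of ISG15 conjugation, ubiquitin and ADP-ribose, the ligase Dtx3l and its partner Parp9, 1128 bases apart, followed each other. Dtx3l had 9.21, 9.83 and 10.7 CPM in TZG, 12.4, 4.24 and 127 CPM in MPS, and 18.9, 18.9, 38.9 and 37.2 CPM in NC. TZG, MPS 10 and MPS 11 were below every NC library, and MPS 11 was the lowest of all. The log2 fold changes of Dtx3l were -1.51 ± 0.43 for MPS 10 and 11 and -1.06 ± 0.36 for TZG, each against NC (edgeR adjusted p = 0.0864 and 0.159), beside -1.07 and -0.93 for Parp9. Parp14, an ADP-ribosyltransferase and the most abundant of these genes in CPM, had 16.9, 14.1 and 15.1 CPM in TZG, 22.7, 13.0 and 277 CPM in MPS, and 31.2, 24.4, 74.9 and 43.4 CPM in NC. It stood at -1.03 ± 0.32 for TZG against NC (edgeR adjusted p = 0.135) with no overlap.

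Usp18, the protease that removes ISG15 and dampens the type I receptor, had 3.88, 5.25 and 1.63 CPM in TZG, 6.79, 2.97 and 90.2 CPM in MPS, and 6.18, 2.14, 31.0 and 10.6 CPM in NC. NC 5 lay below TZG 26, TZG 27 and MPS 11, so the groups overlapped, and MPS 14 was the highest. Isg15 itself and its ligase Herc6 stood at -0.74 and -1.63 for TZG and at -0.53 and -1.55 for MPS 10 and 11, each against NC, with SEs of at least 0.53. The chemokine Cxcl10, which draws T cells, had 1.78, 0.450 and 0.781 CPM in TZG, 1.94, 0.385 and 28.1 CPM in MPS, and 1.55, 0.951, 4.39 and 2.30 CPM in NC. Outside MPS 14 it was low everywhere and overlapped between all groups.

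The other genes of the pathway were read from lists written with earlier results of these data known. Of 8 matched interferon genes, 6 had no count in any library; Ifna4 had 1 count, in TZG 26, and Ifng had 1 count in TZG 27 and 10 in MPS 14. None of the 9 receptor and kinase genes passed in any comparison. In MPS 10 and 11 against NC, 6 of these 9 were lower, Jak2 at -0.78 and Jak1 at -0.69 with the smallest p-values. Of 39 other interferon-induced genes tested, 35 were lower in MPS 10 and 11 than in NC and none passed, at a median of -0.53. In TZG against NC without MPS 14, 33 of these were lower and none passed, at a median of -0.33. Of 10 sensors and adaptors of nucleic acids tested outside the 39, 7 were lower in MPS 10 and 11 than in NC, at a median of -0.70. In TZG against NC without MPS 14, 6 of these 10 were higher, at a median of 0.23, and none passed in either comparison. Among 9 genes that restrain interferon signalling, a list that also holds Usp18, 6 were lower in MPS 10 and 11 than in NC, at a median of -0.37. The 1 that passed, Pias4, rose, where 2.06% of all genes tested passed as higher. Pias4, a SUMO ligase that inhibits STAT factors, had 25.7, 12.4 and 12.4 CPM in TZG, 39.3, 33.6 and 9.68 CPM in MPS, and 13.5, 7.53, 16.3 and 8.10 CPM in NC. Its log2 fold change there was 1.97 ± 0.33 (SE; edgeR adjusted p = 0.0187). That call did not stand without MPS 10, MPS 11, NC 5, NC 6 or NC 7, at adjusted p-values of 0.0502 to 0.169 and log2 fold changes of 1.83 to 2.10. Socs3, which blocks the receptor kinases, had 2.03, 4.65 and 1.77 CPM in TZG, 1.88, 2.09 and 5.94 CPM in MPS, and 0.884, 1.27, 1.56 and 1.19 CPM in NC. It stood at 1.57 ± 0.39 in TZG against NC without MPS 14 (edgeR adjusted p = 0.0851).

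Marker lists of the cells in the muscle pieces differed in direction between the comparisons. All 14 macrophage markers were lower in MPS 10 and 11 than in NC, at a median log2 fold change of -1.69, with 10 at an unadjusted p below 0.05 and none past the adjusted threshold. Their summed level was 246, 119.6 and 427 CPM in TZG, 137, 116 and 6794 CPM in MPS, and 489.9, 313, 698 and 324 CPM in NC. All 7 fibroblast markers were lower in MPS 10 and 11 as well (1 passed, Pdgfra, at -1.32, edgeR adjusted p = 0.0361), all 8 T and killer cell markers tested were lower, and all 7 skeletal muscle markers were higher, of which 2 passed, Pvalb and Myh7. None of these 3 calls stood when 1 of the MPS or NC libraries compared was left out, at adjusted p-values of 0.0713 to 0.288. Myh7, the slow myosin heavy chain, had 0.191, 1309.8 and 26.8 CPM in TZG, 603, 1082.5 and 41.0 CPM in MPS, and 0.147, 0.317, 0.372 and 3.05 CPM in NC. In TZG against NC without MPS 14, 9 of 14 macrophage markers were lower, at a median of -0.20, and fibroblast markers divided into 4 lower and 3 higher. In the same comparison 7 of 8 T and killer cell markers were higher, at a median of 0.81, as were all 7 muscle markers, and none of these passed. Fewer cells of a type and less RNA per cell cannot be told apart in whole muscle, and the part of these markers in the interferon results was not tested.

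Lymphocyte and macrophage marker lists were high in MPS 14, and the neutrophil list was not. T and killer cell markers summed to 1488 CPM there, against at most 28.1 CPM elsewhere, and macrophage markers to 6794 CPM, against at most 698 CPM elsewhere. Lyz2 alone held 5323 CPM of that macrophage sum. Cd163, at 5.57 CPM in MPS 14, was below every NC library, while the other macrophage markers were highest in MPS 14. With all MPS libraries against NC, 6 of the 14 macrophage markers were lower and 8 higher. Neutrophil markers summed to 7.70 CPM in MPS 14, against 3.002 to 8.99 CPM in the other libraries, and S100a8 had no count there. The interferon genes stood at 3367 CPM, against 437 to 1873 CPM in the other libraries, with Mx1, Irf7, Ifi27 and Parp14 the most abundant. On TMM-scaled CPM they summed to 1937 in MPS 14, against 544 to 1542 in the other libraries. The 5 plasmacytoid dendritic cell markers summed to 160 CPM in MPS 14, against 6.10 to 13.3 CPM in the other libraries. Spib, Ccr9 and Runx2 were highest in MPS 14, at 108, 23.4 and 19.2 CPM. Il3ra, at 8.94 CPM there, lay within the range of the other libraries. Siglech was near 0 in every library, at 0.220 CPM in MPS 14. The share of leukocytes in the interferon levels of MPS 14 was not tested.

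**Figure D4:**
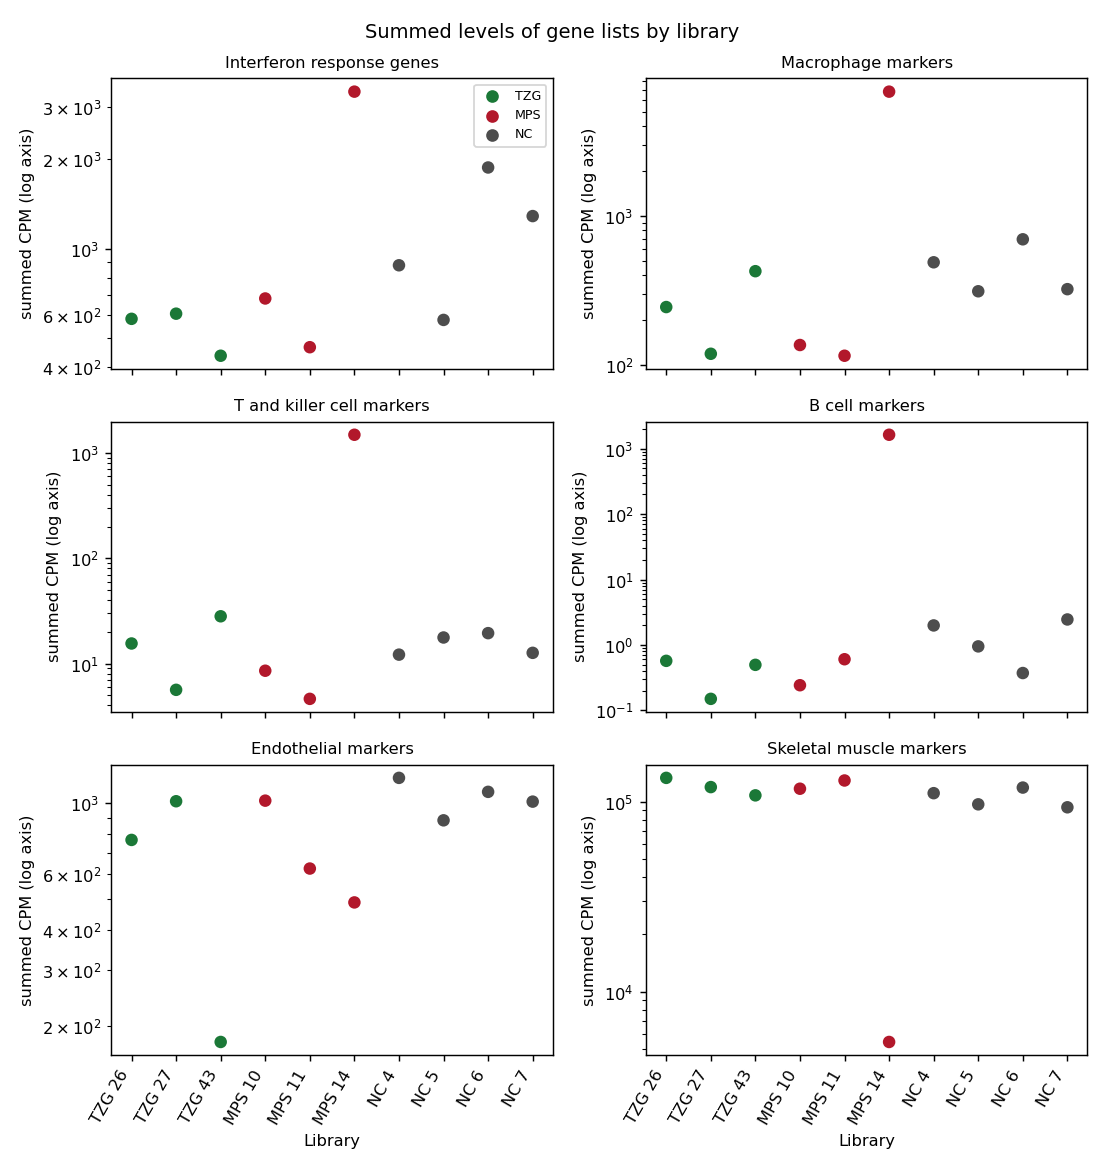
Summed CPM (log axes) of the interferon response genes and of marker lists of 5 cell types in each library, TZG, MPS and NC from left to right. The interferon genes sum to 437 to 605 CPM in TZG, 467 and 680 CPM in MPS 10 and 11, and 576 to 1873 CPM in NC; MPS 14 is the highest or the lowest library in every panel except that of endothelial markers, where TZG 43 is lowest.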

How the data were processed

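Messenger RNA of rat muscle was sequenced in 10 libraries. The authors deposited whole-number counts per gene and library, per the file headers, and FPKM, per the file headers, which equalled counts over length and library total within 0.1%. Tools named in the submitters' processing notes were edgeR 3.30.3, StringTie 1.3.3b, HISAT2 and fastp; the genome build and the treatment of shared reads are not given in the sources used here. The table was deposited in 2 identical copies.

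The counts were tested in R 4.3.3 with edgeR 4.0.16 (filterByExpr, TMM, quasi-likelihood, two-sided, Benjamini-Hochberg over all genes), with 3 groups in 1 fit and again without MPS 14. CPM use the library total; logs of CPM add 0.5. Alternatives were DESeq2 1.42.0, limma-voom (limma 3.58.1), other scalings and filters, 2-group fits and leaving out each library. The edgeR fit of all 10 libraries was tried on simulated counts with 200 changed genes. Those counts had a spread common to all genes, estimated without MPS 14. The fit without MPS 14 was not tried in this way. The members and lists were chosen with earlier results of these data known. Full statistics are given for genes past the threshold and mostly for the 6 with the smallest p per comparison, and values by library also for the most abundant gene of each role; Rsad2, Mx2, Ifi27, Bst2, Zbp1 and Myh7 were added after their values were seen. Intervals and p-values cover spread between libraries only. RefSeq promoters (GRCr8) were matched by symbol. Plots used matplotlib 3.10.9 under Python 3.11.15.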

Additional observations from a re-analysis of the deposited data

Results flagged for a closer look

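Myh7, the slow myosin heavy chain and a marker of muscle fibres, was at 3.05 CPM in NC 7, against 0.147 to 0.372 CPM in the other NC libraries. The gap to the nearest of them took up 0.922 of the whole range, above Dixon's 95% critical value for 4 samples. None of the 39 interferon response genes, nor their summed level, passed that value in NC; 44 sets of NC values were examined, and chance passes about 1 in 20.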

How the results depend on the processing

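For MPS 10 and 11 against NC, edgeR called 2 interferon genes, against 0.321% of all genes as lower, and DESeq2 called 11, against 2.78%. The fit of the 2 compared groups called 4 and library totals alone called 0 in that comparison. The share of all genes called in these 2 settings is not given here, so the counts cannot be set against it. Leaving out any 1 library of the groups compared gave 0 to 0 calls there and 0 to 2 for MPS against NC, the 2 being without MPS 14; it gave 0 in the other comparisons. Without any 1 TZG library, Ifi44l and Irgm still passed in MPS 10 and 11 against NC. For TZG against NC, DESeq2 without MPS 14 called 9, against 1.67% of all genes as lower. On library totals alone the median log2 fold change for TZG against MPS was -1.74. That scale leaves out the TMM factors, 1.77 in MPS 14, and so moves all genes. The median of all genes on it is not given here. With 1 compared library left out, medians ran from -1.62 to -0.88 for MPS 10 and 11 against NC, -1.15 to 0.37 for MPS against NC, -1.28 to 0.12 for TZG against MPS, -0.20 to 0.52 for TZG against MPS 10 and 11, and -1.08 to -0.57 for TZG against NC. MPS 14 had the highest CPM for 53.8% of all genes. How many of all genes changed sign without it is not given here. Without MPS 14, 20 of the 39 genes changed sign in MPS against NC and 25 in TZG against MPS. Those among the genes with the smallest p per comparison, with their range over libraries left out, were Zbp1 (-2.50 to 3.85) and Cxcl10 (-0.70 to 2.12) in MPS against NC, and Mx1 (-4.60 to 0.30), Ifi44l (-2.81 to 0.70) and Zbp1 (-3.71 to 2.64) in TZG against MPS. The cause of these shifts was not tested. The median SD inside NC ran from 0.55 to 0.90 with 1 NC library left out. RLE factors and both filters left 2 calls in MPS 10 and 11 against NC, and limma-voom called Irgm and Ifi44 but not Ifi44l. The share of all genes called in these settings is not given here either. The median for MPS against NC, near 0, was -0.25 with limma-voom and -0.04 with no filter. No paired analysis was possible because no 2 libraries share a number. Depth limits Zbp1, Oas2, Ddx58, Cxcl10 and Xaf1, which had under 20 counts in several libraries. Counts were also low for Ifi44l, which passed in MPS 10 and 11 against NC. It had 26 and 16 counts in MPS 10 and 11, 29, 24 and 24 counts in TZG, and 54 to 144 counts in NC.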

Other observations

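By median fold change, macrophage markers and interferon response genes were both lowest in MPS 10 and 11 and highest in NC. The gaps between the groups differed in size. All 14 macrophage markers were higher in TZG than in MPS 10 and 11, at a median log2 fold change of 1.48, with 9 at an unadjusted p below 0.05 and none past the adjusted threshold. The 39 interferon genes stood at a median of 0.12 in the same comparison. In TZG against NC without MPS 14, the medians were -0.20 for the macrophage markers and -0.93 for the interferon genes. TZG 43 had macrophage markers at 427 CPM, above NC 5 and NC 7, and the lowest summed level of interferon genes of all libraries in CPM, 437. On TMM-scaled CPM the interferon genes summed to 629.7 in TZG 43, above 544 in MPS 11 and 587 in NC 5, and its macrophage markers to 616, above every NC library.

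The genes with a response element in their promoter had a median log2 fold change of -0.93 for TZG against NC without MPS 14 and of -1.17 for MPS 10 and 11 against NC (18 genes). The 11 genes whose promoters held no exact match to the element had medians of -0.50 and -0.85. The ratio of NC 6 to NC 5 had a median of 2.97 in the genes with the element and 2.52 in those without. The 10 genes with no promoter in the table had a median ratio of 5.31. Their median log2 fold changes were -1.28 for TZG and -1.58 for MPS 10 and 11, each against NC. These lay further below 0 than those of the genes with the element, so the split covers only part of the genes.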
